A study of Mus musculus with 11 samples.

Results

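The miR-17-92 cluster is a run of 6 miRNA hairpins cut from 1 primary transcript, and its members here are 10 of its mature arms in the deposited count table: mmu-miR-17-5p, mmu-miR-17-3p, mmu-miR-18a-5p, mmu-miR-18a-3p, mmu-miR-19a-3p, mmu-miR-20a-5p, mmu-miR-20a-3p, mmu-miR-19b-3p, mmu-miR-92a-3p and mmu-miR-92a-1-5p (the prefix mmu, for mouse, is left out from here on). Listed arms miR-19a-5p and miR-19b-1-5p of the same hairpins are outside this set and its sums. The members were chosen by name, as 10 of 1966 listed mature miRNAs, and all 10 passed the filter on low counts that left 730 miRNAs for testing. Mature miR-19b-3p and miR-92a-3p are each also encoded by a hairpin of the paralogous miR-106a-363 cluster on the X chromosome, so their counts pool 2 loci.

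Small RNA libraries were made from mouse embryonic stem cells that differed in DGCR8, an RNA-binding protein that works together with the nuclease Drosha. All lines carried the strain label NBA1-19349 and were grown, with no feeder cells, in a medium that held LIF, CHIR99021 and PD0325901. The groups were 3 induced E518K libraries (clones 8, 13 and 15), 1 untreated E518K library (clone 8), 3 induced KO libraries, 3 libraries of induced wild type (clones 10, 12 and 16) and 1 untreated wild-type library (clone 10). Induction was doxycycline at 300 ng/mL for 48 h, and the KO libraries received it too. The E518K lines carry the genotype label DGCR8 E518K/E518K and were transfected with pSB ET iE-FlagDGCR8-E518K plus pCMV(CAT)-SB100X, a Sleeping Beauty transposase vector. The wild-type lines are labelled DGCR8 wt/wt and received the matching wild-type vector, while the KO is labelled DGCR8 -/- and was not transfected. Whether the transfected lines kept an endogenous Dgcr8 allele is not given in the labels. E518K replaces a glutamate of DGCR8 by lysine and recurs in Wilms tumours, and the untreated libraries were made to measure leakage of the vectors. All 3 KO titles name clone 261, although the design text speaks of independent clones per condition, so their spread may be technical and gives no measure of how KO clones differ.

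Total miRNA counts were 1050564 to 1797240 in induced E518K, 264507 in untreated E518K, 166676 to 208846 in KO, 3394216 to 6128734 in induced wild type and 1421247 in untreated wild type. Most counts were even, so a count floor of 3 small RNAs was set at 6 counts per library. That floor equals 3.93 to 6.05 CPM in induced E518K, 19.1 CPM in untreated E518K, 12.8 to 18.3 CPM in KO, 1.11 to 2.94 CPM in induced wild type and 8.75 CPM in untreated wild type. The 7 embryonic stem cell miRNAs checked as markers summed to 34718 to 40058 CPM in induced E518K, 2339 CPM in untreated E518K, 99.1 to 238 CPM in KO, 86113 to 113206 CPM in induced wild type and 72787 CPM in untreated wild type. In KO 1 of these 7 was at 0; since DGCR8 is needed to make them, they do not check the cell type there. The 9 miRNAs of liver, muscle, nerve and blood summed to 688 to 1376 CPM in induced E518K, 578 CPM in untreated E518K, 186 to 381 CPM in KO, 871 to 1061 CPM in induced wild type and 1575 CPM in untreated wild type; their part in the results was not tested.

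A primary miRNA transcript is cut in the nucleus by the microprocessor, which consists of Drosha and DGCR8. The released hairpin is cut again by Dicer in the cytoplasm, and usually 1 of the 2 arms, the guide, is loaded into an Argonaute protein while the other, the passenger, is degraded. The seed, bases 2 to 8 of the mature miRNA, does most of the pairing with target messages. The cluster is driven by MYC, is amplified in human lymphomas, and is known for promoting proliferation. Its miR-17 family restrains cell cycle inhibitors, and its miR-19 pair is known as the main oncogenic part of the cluster in mouse lymphoma.

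In the mouse genome (GRCm38.p6) all 6 hairpins lie on the plus strand of chromosome 14, inside exon 2 (chr14:115043271-115046727) of the long non-coding gene Mir17hg (chr14:115042879-115046727). The order is Mir17, Mir18, Mir19a, Mir20a, Mir19b-1 and Mir92-1, the last base of Mir92-1 lies 835 bases after the first base of Mir17, and the gaps between neighbours are 96, 53, 75, 41 and 35 bases. The guide arms are shown first because members are later also summed by seed. Capitals mark the seed, and sequences are RefSeq's for this build.
miR-17-5p: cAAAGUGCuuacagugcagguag
miR-20a-5p: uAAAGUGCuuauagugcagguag
miR-18a-5p: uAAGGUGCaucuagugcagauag
miR-19a-3p: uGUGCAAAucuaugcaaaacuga
miR-19b-3p: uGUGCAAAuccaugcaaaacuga
miR-92a-3p: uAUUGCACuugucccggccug
The seed AAAGUGC is shared by miR-17-5p and miR-20a-5p, which differ at C1U and C12U (counted from the 5′ end, miR-17-5p first). The seed AAGGUGC of miR-18a-5p is shared with miR-18b-5p of the X-linked cluster. The seed GUGCAAA belongs to miR-19a-3p and miR-19b-3p, which differ at U11C (miR-19a-3p first). The seed AUUGCAC of miR-92a-3p is found in 6 mouse miRNAs, among them miR-25-3p and miR-363-3p.

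The hairpins of miR-17 and miR-18a are neighbours whose guides were called in opposite directions between induced E518K and induced wild type, so both are given whole, with the mature arms in capitals.
Mir17 (chr14:115043671-115043754, plus strand): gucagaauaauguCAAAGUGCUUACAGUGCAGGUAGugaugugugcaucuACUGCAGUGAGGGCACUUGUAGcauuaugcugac
Mir18 (chr14:115043851-115043946, plus strand): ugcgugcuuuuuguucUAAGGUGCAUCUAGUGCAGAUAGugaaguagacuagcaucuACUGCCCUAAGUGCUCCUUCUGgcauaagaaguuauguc
UGU in the terminal loop is a motif contacted by DGCR8 in work with the human proteins. Searched on the RNA strand between the arms, it is present in Mir17, Mir20a, Mir19b-1 and Mir92-1. It is absent from the letters of this window of Mir18. Mir19a was not scored, because only its guide arm has a listed sequence. The letters just before that guide arm do hold UGU. Whether UGU goes with the direction of change was not tested. The window between the arms holds UGU in 203 of the 644 mouse hairpins with both arms listed, or 31.5%.

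In sum the cluster was abundant in the induced E518K and wild-type libraries and close to the count floor in the KO. Its summed level, in TMM-scaled CPM, was 53077, 51310 and 40211 in induced E518K clones 8, 13 and 15, and 22656, 32990 and 36305 in induced wild-type clones 10, 12 and 16. The E518K libraries were all above the wild-type libraries on this scale, with means of 48199 ± 6974 CPM in induced E518K and 30650 ± 7119 CPM in induced wild type (SD, n = 3 each). As a percent of all miRNA counts the cluster made up 4.51, 5.87 and 2.81% in the same E518K clones and 1.36, 1.77 and 3.30% in the same wild-type clones. On that scale the groups overlapped, since E518K clone 15 was below wild-type clone 16. Without the 2 mature sequences that come from 2 loci the shares averaged 1.82 ± 0.991% in induced E518K and 0.957 ± 0.531% in induced wild type (SD, n = 3 each), and they again overlapped.

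The KO libraries had 25, 11 and 41 counts of the cluster in all, which is 0.0143 ± 0.00903% of their miRNA counts (SD, n = 3). E518K clone 8 held 4.51% when induced (95% Clopper-Pearson interval on halved counts 4.47 to 4.56%) and 0.251% untreated (0.225 to 0.280%, on 665 counts). Wild-type clone 10 held 1.36% when induced (1.34 to 1.38%) and 0.959% untreated (0.936 to 0.982%). Such intervals and floors allow for counting error alone, because the reads carry no molecular identifiers.

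**Figure D1:**
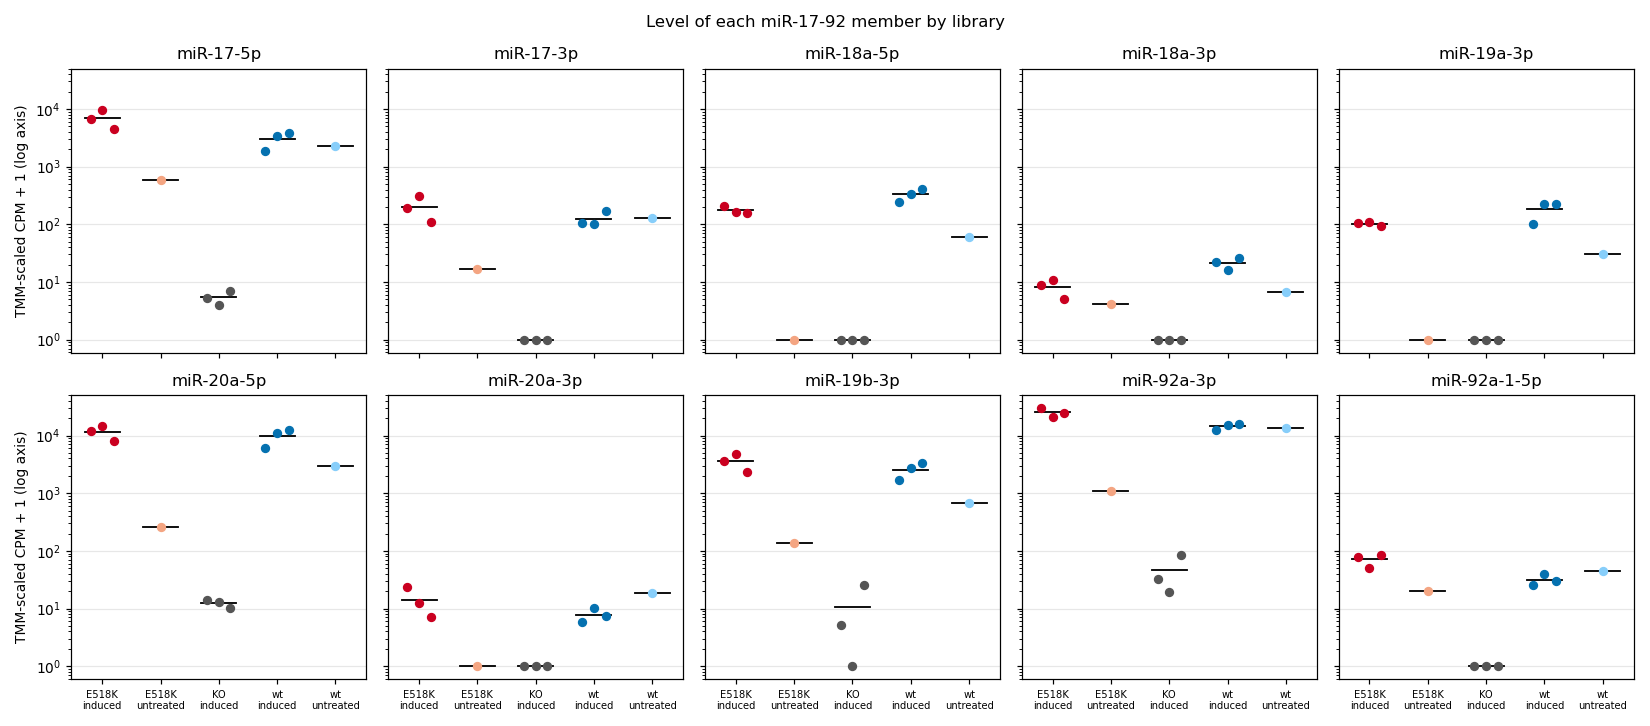
Level of each member in every library, as TMM-scaled CPM plus 1 on a log axis; points are libraries and black lines group means. The KO points lie at or near the bottom of each panel, and the untreated E518K point lies below the induced E518K points in all 10 panels, as it does for 44.1% of all tested miRNAs. For miR-18a-3p and miR-20a-3p the induced E518K mean is itself under the floor of the untreated E518K library.

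The members differed widely in level, from miR-92a-3p at 25361 CPM to miR-18a-3p at 7.29 CPM in induced E518K, and from miR-92a-3p at 14535 CPM to miR-20a-3p at 6.77 CPM in induced wild type. In induced E518K and in induced wild type alike the order by mean CPM was miR-92a-3p, miR-20a-5p, miR-17-5p and miR-19b-3p, and these 4 ranked 9, 13, 20 and 41 among all miRNAs in induced E518K and 11, 16, 43 and 47 in induced wild type. In induced E518K the ranges of miR-20a-5p and miR-17-5p overlapped, as did those of miR-17-5p and miR-19b-3p. In induced wild type miR-92a-3p was above miR-20a-5p in the pooled ranges (12440 to 16007 against 6167 to 12313 CPM). The ranges of miR-17-5p and miR-19b-3p overlapped there. Within every single library of both induced groups, however, the top 4 members kept the order given. The lower 6 members in induced E518K were, from high to low, miR-17-3p, miR-18a-5p, miR-19a-3p, miR-92a-1-5p, miR-20a-3p and miR-18a-3p. In induced wild type they were miR-18a-5p, miR-19a-3p, miR-17-3p, miR-92a-1-5p, miR-18a-3p and miR-20a-3p. Among these, miR-19a-3p and miR-17-3p changed order between libraries of induced wild type. The ranges of miR-92a-1-5p and miR-18a-3p overlapped there, but miR-92a-1-5p was the higher in each library. Guide miR-18a-5p stood above miR-19a-3p in all libraries of both induced groups.

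The first comparison asks how the E518K protein differs from the wild-type protein after induction. In edgeR's quasi-likelihood test with Benjamini-Hochberg adjustment, 2 of 10 members were higher in induced E518K, 2 were lower and 6 did not pass. Of the 730 miRNAs tested, 28.2% were called higher and 35.3% lower, so the members' counts in neither direction stood out from the background. The groups did not overlap for 5 of 10 members, against 64.5% of all tested miRNAs. The median log2 change was 0.59 over the members and -0.14 over all tested miRNAs.

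The member with the smallest adjusted p was miR-17-5p, the namesake of the cell cycle family. It had 6791, 9647 and 4548 CPM in induced E518K clones 8, 13 and 15, against 1866, 3374 and 3813 CPM in induced wild-type clones 10, 12 and 16. All E518K libraries were above all wild-type libraries, though clone 15 of E518K and clone 16 of wild type were close. The mean was 6995 ± 2555 CPM in induced E518K and 3018 ± 1021 CPM in induced wild type (SD, n = 3 each), a log2 change of 1.21 ± 0.38 (SE, adjusted p = 0.0028). The call rests on single libraries: with wild-type clone 10 left out the log2 change was 0.77 (adjusted p = 0.14), with wild-type clone 12 left out 1.05 (adjusted p = 0.064), and with E518K clone 13 left out 0.84 (adjusted p = 0.057).

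Its passenger, miR-17-3p, had 187, 309 and 109 CPM in the E518K clones and 103, 99.6 and 171 CPM in the wild-type clones. The groups overlapped and the log2 change of 0.69 ± 0.42 did not pass (adjusted p = 0.14). The near-identical guide miR-20a-5p had 12079, 14889 and 8143 CPM in the E518K clones and 6167, 11047 and 12313 CPM in the wild-type clones. Its groups overlapped, with a log2 change of 0.25 ± 0.38 (adjusted p = 0.57). Its passenger miR-20a-3p had only 34, 14 and 6 counts in the E518K clones and 10, 30 and 34 counts in the wild-type clones, and its log2 change of 0.99 ± 0.61 did not pass (adjusted p = 0.15).

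Both arms of miR-18a were lower in induced E518K. The guide miR-18a-5p had 209, 160 and 156 CPM in the E518K clones, against 243, 332 and 409 CPM in the wild-type clones, and the groups did not overlap. Its log2 change was -0.91 ± 0.41 (adjusted p = 0.043), with means of 175 ± 29.4 CPM in induced E518K and 328 ± 83.1 CPM in induced wild type (SD, n = 3 each). The passenger miR-18a-3p had 7.85, 9.98 and 4.03 CPM in the E518K clones, against 21.1, 15.2 and 25.2 CPM in the wild-type clones, so every E518K library was below every wild-type library. Its log2 change was -1.46 ± 0.59 (adjusted p = 0.024), on 12, 12 and 4 counts in E518K.

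Both calls depended on single libraries. That of miR-18a-5p no longer passed with wild-type clone 12 or 16, or any 1 of the 3 E518K clones, left out. Its log2 change was then -1.10 (wild-type clone 12 out), -0.99, -0.89 and -0.79 (E518K clone 8, 13 or 15 out), near the value with all libraries, but -0.02 with wild-type clone 16 out (adjusted p = 0.98). That of miR-18a-3p no longer passed with any 1 of the wild-type clones, or with E518K clone 8 or 15, left out. Its log2 change was then between -1.83 (wild-type clone 12 out) and -1.15 (E518K clone 15 out), but -0.64 with wild-type clone 16 out (adjusted p = 0.51). Leaving out that library also moved the median of all tested miRNAs to 0.73, against -0.14 with all libraries.

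In the miR-19 pair neither mature guide arm passed by edgeR with TMM scaling. The level of miR-19a-3p was 104, 108 and 91.7 CPM in the E518K clones and 99.1, 221 and 227 CPM in the wild-type clones. All E518K values were under those of wild-type clones 12 and 16 and around that of clone 10, with a log2 change of -0.85 ± 0.44 (adjusted p = 0.079). It passed as lower with DESeq2 size factors in edgeR (-0.97, adjusted p = 0.036), in the DESeq2 test (-0.97, adjusted p = 0.018) and with wild-type clone 10 left out (-1.29, adjusted p = 0.042), while with wild-type clone 16 left out the value was 0.027 (adjusted p = 0.97). For miR-19b-3p, which 2 loci encode, there were 3595, 4768 and 2348 CPM in the E518K clones and 1687, 2694 and 3306 CPM in the wild-type clones, with a log2 change of 0.48 ± 0.37 (adjusted p = 0.25). The 2 passenger arms of these hairpins, which are outside the 10 members (miR-19a-5p and miR-19b-1-5p), were called higher in induced E518K, at 59.8 ± 36.3 and 22.6 ± 3.98 CPM in induced E518K, against 23.5 ± 3.15 and 6.77 ± 3.40 CPM in induced wild type (SD, n = 3 each). Their log2 changes were 1.34 ± 0.49 (adjusted p = 0.012) and 1.67 ± 0.58 (adjusted p = 0.0078).

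At the 3′ end of the cluster the guide miR-92a-3p, which restrains blood vessel growth, was the most abundant member. It had 30004, 21359 and 24721 CPM in the E518K clones, against 12440, 15158 and 16007 CPM in the wild-type clones. The groups did not overlap, but the log2 change of 0.80 ± 0.39 did not pass (adjusted p = 0.062), and this mature sequence again comes from 2 loci. It did pass with total counts as the scale (1.16, adjusted p = 0.0040), with the 2 groups fitted alone (0.85, adjusted p = 0.011), with wild-type clone 16 left out (1.59, adjusted p = 0.010) and with E518K clone 13 left out (0.90, adjusted p = 0.041). Its arm partner from this cluster alone, miR-92a-1-5p, had 76.6, 49.9 and 83.6 CPM in the E518K clones, against 24.5, 39.2 and 28.6 CPM in the wild-type clones. It was called higher, with a log2 change of 1.18 ± 0.48 (adjusted p = 0.024), which no longer passed with E518K clone 8 or 15, or wild-type clone 10 or 12, left out, where the log2 changes were 1.28, 1.09, 0.98 and 1.28 (adjusted p = 0.092, 0.062, 0.19 and 0.10).

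**Figure D2:**
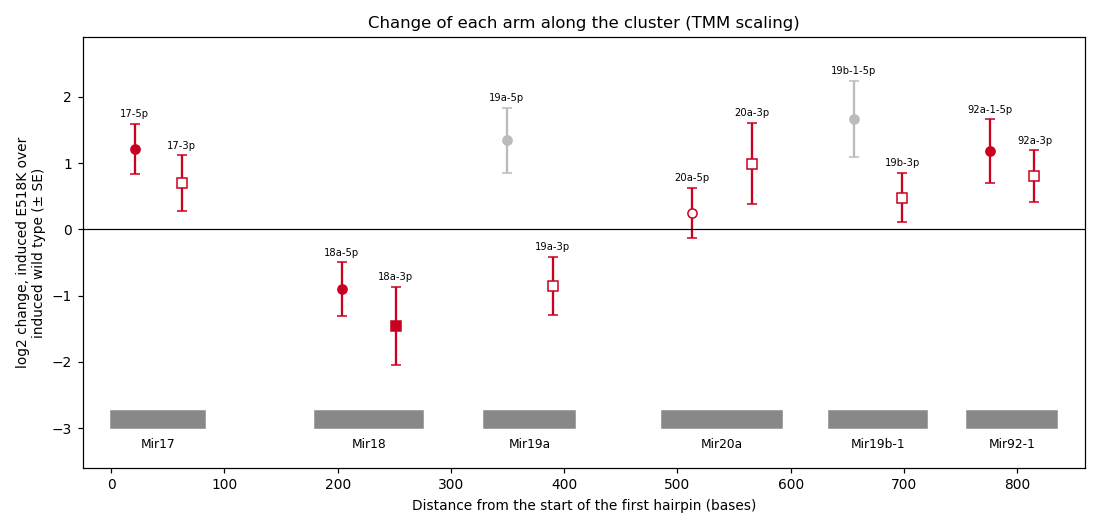
Log2 change of each arm, induced E518K over induced wild type, with its SE, above the hairpin that carries it; grey bars are the hairpins to scale along the cluster, and the 2 arms stand at fixed places within their hairpin (circles 5p, squares 3p). Filled symbols passed the test, red marks the 10 members and grey the 2 passenger arms outside them; both arms of Mir18 and the 3p arm of Mir19a lie below 0 and all other arms above it.

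These directions hold only relative to the miRNA pool. TMM sets the libraries on a scale where most miRNAs are taken as unchanged, while the summed counts of 12 miRNAs that do not need DGCR8 give another scale. With that list as the scale all 10 members were lower in induced E518K, with log2 changes from -1.59 for miR-17-5p and miR-92a-1-5p to -4.24 for miR-18a-3p. The median was then -2.21 over the members and -2.90 over all tested miRNAs. With total counts as the scale 3 members were higher and 0 lower, and the median was 1.00 over the members and 0.21 over all tested miRNAs. The share of all tested miRNAs called under these scalings is not given here. In each of these 3 scalings miR-18a-3p, miR-18a-5p and miR-19a-3p kept the lowest values among the members.

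**Figure D3:**
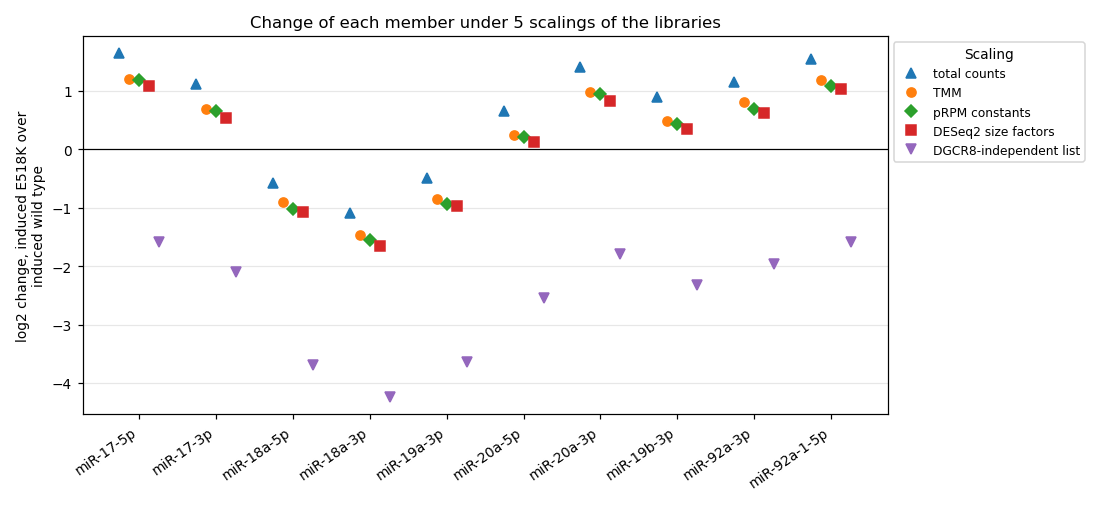
Log2 change of each member, induced E518K over induced wild type, under 5 ways to scale the libraries. Under the list of DGCR8-independent miRNAs all 10 values are below 0, while under the other 4 scalings the values of miR-18a-5p, miR-18a-3p and miR-19a-3p are below 0 and those of the other 7 above it.

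Shares within the cluster need no scaling between libraries, and those of both miR-18a arms and miR-19a-3p were lower in induced E518K in every library. Guide miR-18a-5p made up 0.393, 0.311 and 0.388% of the cluster's counts in E518K clones 8, 13 and 15, against 1.07, 1.01 and 1.13% in wild-type clones 10, 12 and 16. Every E518K share was under every wild-type share, at 0.364 ± 0.0460% in induced E518K and 1.07 ± 0.0599% in induced wild type (SD, n = 3 each). The share of miR-19a-3p was 0.212 ± 0.0160% in induced E518K and 0.578 ± 0.124% in induced wild type, and that of miR-18a-3p was 0.0148 ± 0.00472% and 0.0695 ± 0.0236% in the same order. By contrast miR-17-5p made up 14.3 ± 3.97% in induced E518K and 9.66 ± 1.24% in induced wild type. Such shares were not particular to E518K. Untreated wild-type clone 10, a lone library, had 0.294% of miR-18a-5p, 0.147% of miR-19a-3p, 0.0294% of miR-18a-3p and 11.6% of miR-17-5p. The first 3 were under those of all induced wild-type clones, and the last was above them.

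For these 4 members the groups did not overlap, and the two-sided exact permutation test gave p = 0.1, the smallest that 3 libraries against 3 allow (adjusted p = 0.25 over the 10 members), so it could not pass the threshold of 0.05. The other 6 members overlapped: miR-20a-5p at 24.0 ± 4.52% in induced E518K and 31.5 ± 3.75% in induced wild type (exact p = 0.2), and miR-92a-3p at 53.2 ± 10.3% in induced E518K and 48.3 ± 5.79% in induced wild type (exact p = 0.6). Likewise miR-19b-3p made up 7.30 ± 1.79% in induced E518K and 8.24 ± 0.831% in induced wild type (exact p = 0.5). Expressed as ratios in each library, there were 32.5, 60.4 and 29.1 counts of miR-17-5p per count of its neighbour miR-18a-5p in E518K clones 8, 13 and 15, against 7.68, 10.2 and 9.32 in wild-type clones 10, 12 and 16. The seed mates also parted: miR-19b-3p outnumbered miR-19a-3p 34.5, 44.1 and 25.6 times in the E518K clones, against 17.0, 12.2 and 14.5 times in the wild-type clones. In untreated wild-type clone 10 the ratio of miR-17-5p to miR-18a-5p was 39.35, and that of miR-19b-3p to miR-19a-3p was 22.8.

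**Figure D4:**
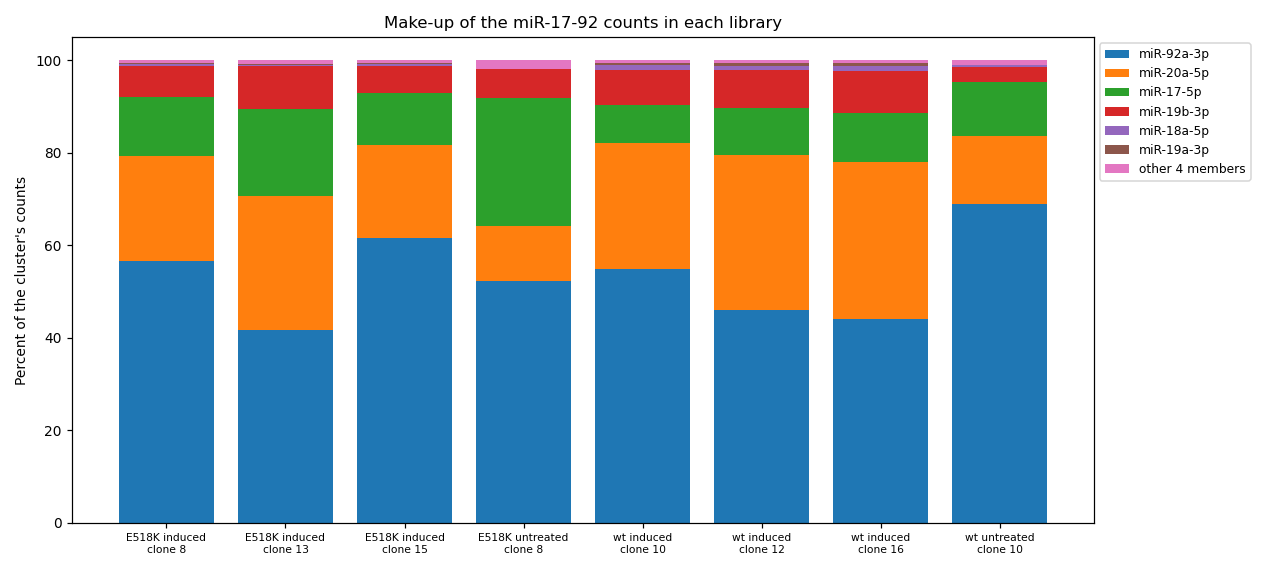
Percent of the cluster's counts held by each member in the 8 libraries of lines with DGCR8, as stacked bars. The miR-17-5p band runs from 11.3 to 18.8% in the induced E518K clones, against 8.24 to 10.5% in the induced wild-type clones, and the thin miR-18a-5p band is 0.311 to 0.393% against 1.01 to 1.13%.

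The ratio of 5p to 3p arms gave no separation between the groups. The 5p arm held 96.9 to 97.7% of the miR-17 arms in induced E518K and 94.8 to 97.1% in induced wild type, and 94.1 to 97.5% of the miR-18a arms in induced E518K and 92.0 to 95.6% in induced wild type. In Mir20a the 5p arm held at least 99.8% in all 6 of these libraries, whereas miR-92a-1-5p was 0.233 to 0.337% of itself plus miR-92a-3p in induced E518K and 0.178 to 0.258% in induced wild type. Since miR-92a-3p pools Mir92-1 and the X-linked Mir92-2, that last share is not one within a single hairpin. Log2 ratios of 5p to 3p counts differed by 0.59 for Mir17, 0.52 for Mir18, -0.60 for Mir20a and 0.38 for miR-92a-1-5p over the pooled miR-92a-3p (E518K minus wild type), the groups overlapped in all 4, and exact p-values were 0.2, 0.3, 0.5 and 0.3. With 3 libraries a group, a p that misses the threshold does not show that arm use was alike.

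The X-linked miR-106a-363 cluster holds close copies of these hairpins, on the minus strand, and several members can be set against a related arm of it within a library. These arms are shown because 1 or 2 bases separate the first 3 from their members; miR-363-3p, which shares the miR-92a seed, differs in length and is no copy.
miR-106a-5p: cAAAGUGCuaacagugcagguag
miR-18b-5p: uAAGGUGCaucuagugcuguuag
miR-20b-5p: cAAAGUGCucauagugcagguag
miR-363-3p: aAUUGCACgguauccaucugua
With the member's base first and positions counted from the 5′ end, miR-106a-5p differs from miR-17-5p at U10A, miR-18b-5p from miR-18a-5p at A18U and A20U, and miR-20b-5p from miR-20a-5p at U1C and U10C. None of these is in the seed. Since miR-92a-3p is itself also made from Mir92-2 of the X-linked cluster, its ratio to miR-363-3p does not set 1 cluster against the other. The pairs were chosen with the data already seen.

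In the 3 guide pairs from separate loci, and in the pair with the pooled miR-92a-3p, the member held a larger part of the pair in induced E518K than in induced wild type. The log2 ratio of miR-17-5p to miR-106a-5p was 2.96, 3.34 and 2.79 in E518K clones 8, 13 and 15, against 0.37, 0.37 and 0.40 in wild-type clones 10, 12 and 16. That of miR-18a-5p to miR-18b-5p was 0.23, 0.52 and 0.30 in the E518K clones, against -2.22, -1.99 and -1.92 in the wild-type clones, so the member was the more abundant of the 2 in E518K and the less abundant in wild type. For miR-92a-3p over miR-363-3p the log2 ratios were 3.94, 3.86 and 3.61 in the E518K clones, against 1.76, 1.67 and 1.98 in the wild-type clones. The smallest shift was that of miR-20a-5p over miR-20b-5p, at 2.07, 2.03 and 1.92 in the E518K clones, against 1.32, 1.46 and 1.47 in the wild-type clones. Ratios above induced wild type were not particular to E518K. Untreated wild-type clone 10, a lone library, had 2.56 for miR-17-5p, -0.26 for miR-18a-5p and 4.97 for miR-92a-3p. Each of these lay above all induced wild-type clones. Its ratio for miR-20a-5p was 1.40, inside the induced wild-type range.

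The differences of the means were 2.65, 2.39, 2.00 and 0.59 on the log2 scale for miR-17-5p, miR-18a-5p, miR-92a-3p and miR-20a-5p. None of the 4 pairs overlapped between groups, each with an exact p of 0.1 (adjusted p = 0.125 over 5 pairs), the smallest possible, so no pair could pass 0.05. Leaving out any 1 library kept each direction. The fifth pair, of 2 passenger arms, went the other way and overlapped: miR-92a-1-5p over miR-92a-2-5p averaged -1.13 ± 0.513 in induced E518K and -0.69 ± 0.101 in induced wild type (SD, n = 3 each, exact p = 0.2).

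In the fit over all miRNAs 4 of 10 arms of miR-106a-363 were called lower in induced E518K and 1 higher, close to the 35.3% called lower among all tested. The largest change was in miR-18b-5p, at 178, 111 and 127 CPM in the E518K clones, against 1133, 1323 and 1547 CPM in the wild-type clones, a log2 change of -3.26 ± 0.42 (adjusted p = 3.4e-13). For miR-106a-5p the log2 change was -1.49 ± 0.38 (adjusted p = 0.00031), for miR-363-3p -1.20 ± 0.37 (adjusted p = 0.0031), and for miR-20b-5p -0.33 ± 0.37, which did not pass (adjusted p = 0.43). The arm called higher was the passenger miR-92a-2-5p, with a log2 change of 1.71 ± 0.46 (adjusted p = 0.00061). In the third related cluster, miR-106b-25 on chromosome 5, 2 of 6 arms were lower and 0 higher, again near the 35.3% of all tested called lower. Of these, miR-25-3p, which carries the miR-92a seed, had a log2 change of -1.91 ± 0.40 (adjusted p = 6.5e-06), while miR-93-5p and miR-106b-5p, which carry the miR-17 seed, had 0.18 ± 0.37 and 0.22 ± 0.38.

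**Figure D5:**
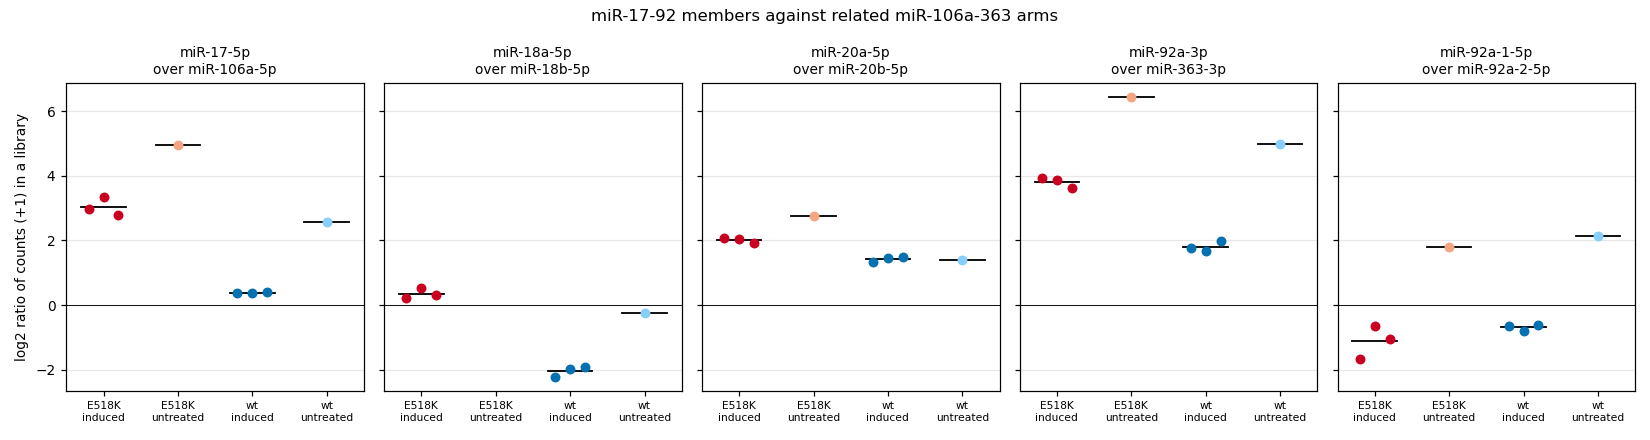
Log2 ratio of counts (plus 1) of a miR-17-92 member to a related miR-106a-363 arm in each library; points are libraries and lines group means. Induced E518K lies above induced wild type in the first 4 panels and overlaps it in the fifth, and untreated E518K has no point for miR-18a-5p because both counts were 0.

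Summed by seed, the members' part of 3 families was larger in induced E518K as well, which rests on the same counts. Of all counts with the seed AAAGUGC, miR-17-5p and miR-20a-5p together supplied 64.4 ± 2.65% in induced E518K and 52.3 ± 1.71% in induced wild type. Of those with AAGGUGC, miR-18a-5p supplied 56.0 ± 2.57% in induced E518K and 19.5 ± 1.69% in induced wild type. Of those with AUUGCAC, miR-92a-3p, from both its loci, supplied 75.7 ± 0.369% in induced E518K and 33.6 ± 3.72% in induced wild type (SD, n = 3 each). In untreated wild-type clone 10, a lone library, the 3 shares were 59.4, 45.5 and 79.1%, each above all induced wild-type clones. The whole AUUGCAC family summed to 33529 ± 5843 CPM in induced E518K and 43169 ± 1930 CPM in induced wild type, and the whole AAGGUGC family to 314 ± 63.6 CPM in induced E518K and 1663 ± 290 CPM in induced wild type. The AAAGUGC family differed by less than its spread, at 28825 ± 8137 CPM in induced E518K and 24435 ± 7507 CPM in induced wild type.

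The KO comparison asks how far the members depend on DGCR8. By edgeR all 10 members were lower in KO, set against induced wild type, where 58.4% of the 730 tested were called lower. In all KO libraries 6 of the members were at 0, as were 228 of the 730 tested, so no call in the other direction was possible for them. For miR-92a-3p there were 15, 6 and 28 counts in the 3 KO libraries, against 25346, 49915 and 86330 counts in induced wild-type clones 10, 12 and 16. On the CPM scale that is 32.0, 18.0 and 85.5 CPM in KO, against 12440, 15158 and 16007 CPM in induced wild type, a log2 change of -8.35 ± 0.55 (adjusted p = 4.7e-44). The KO level of miR-20a-5p was 12.8, 12.0 and 9.16 CPM, on 6, 4 and 3 counts, with a log2 change of -9.74 ± 0.60 (adjusted p = 2.7e-50).

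The other KO values lie near the floor. The pooled ratio of induced wild type to KO for miR-17-5p was 747 (95% Poisson interval on halved counts 233 to 4495), on 2, 1 and 2 KO counts, and for miR-19b-3p it was 317 (136 to 978), on 2, 0 and 8 KO counts. The other 6 members were at 0 in all 3 KO libraries, and taking the floor of 6 counts per library their KO level was at least 20.0-fold lower for miR-18a-5p, 11.2-fold for miR-19a-3p, 7.59-fold for miR-17-3p, 1.88-fold for miR-92a-1-5p and 1.25-fold for miR-18a-3p. For miR-20a-3p the induced wild-type mean of 6.77 CPM was itself under the KO floor, so no fold is given and its call depends on the fit alone.

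Induced E518K was set against the same KO libraries to ask how far the members rise above cells without DGCR8 when the mutant protein is induced. All 10 members were called higher in induced E518K, against 41.9% of the tested miRNAs. For the 6 members at 0 in every KO library no call in the other direction was possible. The pooled ratio of induced E518K to KO was 1607 (502 to 9669) for miR-17-5p, 1037 (490 to 2692) for miR-20a-5p, 595 (401 to 924) for miR-92a-3p and 411 (176 to 1267) for miR-19b-3p. Against the KO floor the level was at least 12.3-fold higher for miR-17-3p, 10.7-fold for miR-18a-5p, 6.19-fold for miR-19a-3p and 4.28-fold for miR-92a-1-5p. No fold is given for miR-18a-3p and miR-20a-3p, whose E518K means of 7.29 and 13.3 CPM lie under the KO floor of 16.4 CPM. Their calls depend on the fit alone. These 2 comparisons and the first share libraries and are not independent of each other.

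Untreated cells show what the members reach before induction. Fold changes here are untreated over induced, and each untreated group is a lone library, taken by the fit to vary as much as the groups with replicates do. In wild type 4 of 10 members were lower without doxycycline, against 15.9% of all tested, and 0 were higher. Guide miR-20a-5p had 6167, 11047 and 12313 CPM in induced clones 10, 12 and 16 and 2944 CPM in untreated clone 10. Its log2 change was -1.74 ± 0.60 (adjusted p = 0.015), and with induced clone 16 left out it did not pass (-1.62, adjusted p = 0.087). For miR-19b-3p the levels were 1687 CPM in induced and 665 CPM in untreated clone 10, with a log2 change over the group of -1.95 ± 0.60 (adjusted p = 0.0061).

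The largest changes in untreated wild type were in the weaker guides. Clone 10 had 243 CPM of miR-18a-5p when induced and 58.3 CPM untreated (log2 change over the group -2.49 ± 0.69, adjusted p = 0.0022). It had 99.1 CPM of miR-19a-3p when induced and 29.2 CPM untreated (-2.65 ± 0.77, adjusted p = 0.0036). The other 6 did not pass, among them miR-92a-3p at 12440 CPM in induced and 13691 CPM in untreated clone 10 (-0.09 ± 0.55, adjusted p = 0.92) and miR-17-5p at 1866 CPM in induced and 2296 CPM in untreated clone 10 (-0.39 ± 0.54, adjusted p = 0.59). Within clone 10 both miR-92a-3p and miR-17-5p were higher untreated, opposite in sign to their group changes. For each member called lower, induced clone 10 was the lowest of the induced wild-type clones. The group changes of those members are therefore larger than the steps within clone 10. For miR-17-3p, miR-20a-3p and miR-92a-1-5p no direction held under every scaling.

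In E518K 7 of 10 members passed as lower without doxycycline, against 28.4% of all tested, and 0 as higher. All 10 untreated values lay under the induced range, against 44.1% of all tested miRNAs; 598 of the 730 lay outside the induced range in either direction, in a comparison with a lone untreated library. Clone 8 had 30004 CPM of miR-92a-3p when induced and 1103 CPM untreated, a log2 change over the group of -4.52 ± 0.74 (adjusted p = 2.0e-08). It had 12079 CPM of miR-20a-5p when induced and 254 CPM untreated (-5.52 ± 0.77, adjusted p = 6.2e-11), 3595 and 133 CPM of miR-19b-3p in the same order (-4.74 ± 0.74, adjusted p = 5.2e-09), and 6791 and 585 CPM of miR-17-5p (-3.58 ± 0.67, adjusted p = 9.6e-07). On 5 untreated counts the ratio of induced to untreated miR-17-3p was 12.9 (95% Poisson interval 4.04 to 77.8).

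Guides miR-18a-5p and miR-19a-3p were at 0 in untreated E518K, which makes the untreated level at least 9.17-fold and 5.31-fold lower than the induced mean. The 3 members that did not pass were miR-20a-3p, at 0 counts, miR-18a-3p, at 1 count, and miR-92a-1-5p, at 6 counts untreated. Within the cluster the untreated make-up also differed from the induced one: the ratio of miR-17-5p to miR-20a-5p counts was 0.56 in induced and 2.30 in untreated E518K clone 8, and 0.30 in induced and 0.78 in untreated wild-type clone 10. One library a condition leaves these ratios without a replicate check.

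A test of the difference itself, chosen with the data already seen, asked whether the step from induced to untreated was larger in E518K than in wild type. It was for 7 of 10 members, against 17.4% of the tested miRNAs, and the number was 2 with induced wild-type clone 10 or 12 left out, 3 with induced E518K clone 8 left out and 4 with induced E518K clone 13 left out. The untreated E518K library had 264507 counts and the untreated wild-type library 1421247, and the part of that gap in the difference was not tested.

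Across all 11 libraries the miRNAs whose profile came closest to that of the summed members were named by the root mean square difference of log2 CPM, each taken relative to induced wild type, among 212 miRNAs with at least 100 CPM there. They were miR-291a-5p (0.468), miR-294-5p (0.571), miR-295-3p (0.760), miR-335-3p (0.761) and miR-181c-3p (0.849). The nearest, miR-291a-5p, had means of 3600 CPM in induced E518K, 232 CPM in untreated E518K, 8.93 CPM in KO, 2910 CPM in induced wild type and 3226 CPM in untreated wild type. The first 3 all come from the embryonic stem cell cluster of miR-290 to miR-295.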

How the data were processed

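Small RNA libraries of 11 samples in 5 groups were compared; groups and clones came from the sample titles. The authors deposited read counts for 1966 mature miRNAs, not normalized, and the same miRNAs as RPM (pRPM in the file header). The RPM equalled those counts times 1 constant per library: whole reads within 0.01 reads for 100% of values. Libraries of a replicated group shared 1 pRPM total, at 683476 in induced E518K, 85006 in KO and 938495 in induced wild type. How these totals were set is not given. The pRPM constants thus differ from TMM scaling between groups and were run as an alternative. STAR, bedtools and the build GRCm38.p6 are named in the submitters' processing notes; how reads of 2 loci were counted is not given in the sources. A further file, byte for byte a copy of the RPM table, was not used. Of counts from 1 to 40, 90.3% were even, so the floor of 3 small RNAs is 6 counts. Among the members' own 88 counts above 0, of any size, 60 (68.2%) were even.

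Tests used edgeR 4.0.16 in R 4.3.3 (robust quasi-likelihood fit, all 11 libraries, TMM scaling, filterByExpr with minimum count 10 and total 15), with Benjamini-Hochberg adjustment over 730 miRNAs and a threshold of 0.05; adjusted p-values are from edgeR. The code was tested on simulated data. Nothing in the labels says that KO samples came from separate cultures, so p-values measure the spread between these samples. Ratios within a library were compared by two-sided exact permutation tests (SciPy 1.17.1) with a pseudocount of 1 count for log2 ratios. Alternatives were other scalings, no filter, DESeq2 1.42.0, the compared groups alone and leaving out each replicate. Sequences are RefSeq's for GRCm38.p6, matched by name. Members and lists were chosen with earlier results of these data known. Named miRNAs are the 10 members, the other arms of their hairpins, the paralogous clusters and the 5 nearest profiles.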

Additional observations from a re-analysis of the deposited data

Results flagged for a closer look

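In 7 members the change between induced and untreated cells differed between E518K and wild type in a test of the difference (edgeR, untreated minus induced, E518K minus wild type, log2). The values were -4.44 ± 0.84 for miR-92a-3p (SE, adjusted p = 7.5e-06), -3.78 ± 0.82 for miR-20a-5p (adjusted p = 9.4e-05), -3.19 ± 0.78 for miR-17-5p (adjusted p = 0.00062), -3.67 ± 1.06 for miR-17-3p (adjusted p = 0.0050) and -2.79 ± 0.80 for miR-19b-3p (adjusted p = 0.0050). For miR-18a-5p and miR-20a-3p the fitted values were -8.55 (adjusted p = 0.015) and -8.72 (adjusted p = 0.048), but untreated E518K was at 0 there, so these depend on the prior count and are no bound. Each untreated group is 1 library, and the median of all tested miRNAs in this contrast was -0.68.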

How the results depend on the processing

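All 10 members kept their direction in the KO comparisons under every alternative that gave a value, and so did the 4 guide ratios to miR-106a-363 arms. Not every alternative gave a value for miR-20a-3p in both KO comparisons, or for miR-18a-3p in induced E518K against KO. Calls were lost with total counts and with KO library 2 or 3 left out. In KO against induced wild type miR-20a-3p then had adjusted p = 0.096, 0.071 and 0.064. In induced E518K against KO miR-18a-3p had adjusted p = 0.052, 0.080 and 0.074 in the same order. The log2 changes stayed near the main values. Among the members' 130 values under alternatives in induced E518K against induced wild type, 86 kept direction and call. With the DGCR8-independent list 10 members were lower and 0 higher, and 7 reversed: miR-17-5p -1.59, miR-17-3p -2.10, miR-20a-5p -2.55, miR-20a-3p -1.79, miR-19b-3p -2.32, miR-92a-3p -1.97 and miR-92a-1-5p -1.59. Members lower were 0 with total counts and 1 with no filter; with the pRPM constants, chosen after seeing the data, 1 was higher and 1 lower. Leaving out 1 library gave 0 to 5 members higher and 0 to 2 lower, where 360 to 418 miRNAs were called in either direction. Then miR-20a-5p ranged from -0.18 (wild-type clone 10 out, and -0.02 with E518K clone 13 out) to 1.10, and miR-19a-3p from -1.29 to 0.027 (wild-type clone 16 out).

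In untreated against induced wild type the list scaling called 495 miRNAs (254 by TMM) and 9 members lower, and calls were 168 to 213 with 1 library out. There miR-17-3p reversed to -0.69 (DESeq2 size factors), -0.58 (total counts), -3.18 (list), -1.03 (pRPM), -0.69 (DESeq2) and -0.79 (wild-type clone 10 or 12 out, up to 0.25 with clone 16 out); miR-92a-1-5p to -0.16, -2.69 (list), -0.42 (pRPM), -0.16 (DESeq2) and -0.20 (clone 10 out, up to 0.38 with clone 16 out); and miR-20a-3p to -1.84 (list). The difference of differences called 157 miRNAs, 92 with total counts (3 members) and 78 to 187 with 1 library out (2 to 9 members); miR-18a-3p reversed there to -0.25 (pRPM) and -0.70 (wild-type clone 16 out, up to 1.45 with clone 12 out). Differences in the share of the cluster reversed for miR-17-3p (0.0493 points without miR-19b-3p and miR-92a-3p in the sum; -0.0969 to 0.0686 with 1 library out) and miR-20a-3p (-0.00335 to 0.0101 with 1 library out). The cause was not tested. No paired analysis was possible because the groups compared share fewer than 2 clone numbers. Depth limits the KO and untreated E518K values, where most members lie at or under the floor.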
